A study of Mus musculus with 8 samples.

Results

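The Kruppel-like factors (KLFs) examined here are 10 genes, Klf3, Klf4, Klf5, Klf6, Klf7, Klf9, Klf10, Klf11, Klf13 and Klf15, chosen by gene name from the 55114 genes counted. RNA was sequenced from intestinal crypts of 4 Mex3a KO mice and 4 WT littermates, all C57BL/6 and 8 weeks old, with no treatment. The deletion, which removes exon 1 and part of exon 2 of Mex3a, is constitutive, so cells other than epithelium lack the gene too. The labels do not name the region of the intestine, and the crypts were released with EDTA without sorting, so other cells may be carried along. The question asked of the family was whether Klf4 differed alone between the genotypes or whether its relatives moved as well.

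KLFs are zinc finger transcription factors that bind GC-rich and CACCC sequences in promoters through a C-terminal DNA-binding domain that is much alike in all of them, while their N-terminal parts differ and recruit different partners. KLF4 and KLF5 are the pair best known in the intestine: KLF5 is found in the dividing cells of the crypt and drives proliferation, whereas KLF4 is found in differentiated cells, restrains the cell cycle and is needed for goblet cells to mature. MEX3A is an RNA-binding protein of crypt base stem cells whose KH domains recognise a short bipartite element in the 3'UTR of its target mRNAs, and Klf4 mRNA is the target the study is concerned with.

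The recognition element is shown first, because the study searched for it to find Klf4 as a putative target of MEX3A. The paper adds experiments in human cell lines: reporter assays with either KLF4 site mutated, and crosslinking immunoprecipitation of KLF4 mRNA with MEX3A. It also reports faster decay of KLF4 mRNA under MEX3A overexpression. The element consists of a pair of 4-base parts separated by 0 to 8 bases. It was searched on the sense strand in 3'UTRs, taking for each gene its longest coding transcript (GENCODE M21, GRCm38). The 2 sites of Klf4 lie in its last exon, exon 5, on the minus strand of chromosome 4, at 4:55527544-55527558 and 4:55527169-55527184. The 6 sites of Klf11, the member with the lowest KO to WT ratio, lie in exon 4 on the plus strand of chromosome 12, between bases 24660642 and 24662656. The single site of Klf15, the member with the fewest, lies in exon 4 on the plus strand at 6:90475060-90475074. Each is printed 5′ to 3′ from the GENCODE transcript, with the parts of the element in capitals and with 4 flanking bases on each side.
Klf4 site 1: ttggTGAGtcgtggtTCTAaagg
Klf4 site 2: aaggTGAGaaataagtTTTAaata
Klf11 site 1: ttttGTAGtTTTAgaac
Klf11 site 2: gtggATAGaaaatTTTAcagc
Klf11 site 3: ttttATAGtcaatatTTTAgatc
Klf11 site 4: ctttTGAGcctTATAtaac
Klf11 site 5: ccaaTTAGaTTTAgaaa
Klf11 site 6: ttcaGTAGtTTTAgtaa
Klf15 site: gtacATAGgtacgcaTCTAcata

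All 10 members held at least 1 match, from 1 in Klf15 to 13 in Klf6 and in Klf9, and 74 in all. Matches are common: 74.2% of the 13033 tested genes with a 3'UTR held at least 1, and longer 3'UTRs held more. Against genes whose 3'UTR was 80 to 125% as long, Klf4 stood at the median, with 2 matches in 982 bases (2.04 per kb) against a median of 2. Klf11 also stood at its median, with 6 matches in 2326 bases against 6. Klf5, with 7 matches in 1707 bases against a median of 4, Klf6, with 13 against 8, Klf9, with 13 against 8, and Klf10, with 5 against 3, held more than the median gene of like length. Of the 13 matches of Klf9, 5 lie beyond the end of the gene as bounded in the deposited table, and 8 within it. Klf7, with 8 matches in the longest 3'UTR of the family (6266 bases) against a median of 18, Klf13, with 10 against 14, Klf3, with 9 against 10, and Klf15, with 1 against 2, held fewer. A match is a description of the sequence and does not show binding.

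Between 20324184 and 24726221 reads per WT mouse and between 23489180 and 30654105 per KO mouse were counted on genes. Mex3a had 236 to 328 counts in WT and 6 to 28 in KO mice, a log2 fold change of -4.43 (SE 0.43, adjusted p = 0.0310 by edgeR's quasi-likelihood test, and 0.126 when blocked by replicate number). Epithelial markers, among them Epcam, Cdh1 and keratins, stood far above those of other cell types: 8 such genes summed to 9240 to 9935 CPM (library-size normalized counts) in WT and 10601 to 12478 in KO mice, and 4 of the 8 passed an unadjusted p under 0.05, all higher, against 8.38% of all genes tested (5.33% higher, 3.05% lower). T cell markers summed to 12.1 to 45.4 CPM in WT and 25.5 to 98.5 in KO mice, with 5 of 8 tested passing higher, while myeloid (28.0 to 38.6 against 28.1 to 39.1 CPM), stromal (7.21 to 16.8 against 9.40 to 19.6) and B cell markers (14.6 to 28.3 against 17.5 to 29.2) had no gene past that threshold, although with the block 1 myeloid gene, Itgam, and 1 stromal gene, Dcn, passed higher. Of the few endothelial and blood markers tested, 0 of 2 and 1 of 1 passed it, the latter Hba-a1, lower in KO. No marker list had a gene at 0 in every mouse.

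Per gene length, Klf5 was by far the most abundant member in WT crypts, at 86.9 ± 8.82 FPKM (a measure scaled by gene length and library size; SD, n = 4), followed by Klf4 at 30.2 ± 8.54 and Klf6 at 23.4 ± 1.27. Klf10 (19.6 ± 3.30 FPKM), Klf9 (16.1 ± 4.39), Klf3 (14.0 ± 0.654), Klf13 (11.0 ± 0.723) and Klf11 (8.44 ± 2.62) followed, and Klf15 (2.31 ± 1.34) and Klf7 (1.38 ± 0.211) were scarce. Of neighbours in this order, the ranges over WT mice were apart for Klf5 and Klf4, for Klf3 and Klf13, and for Klf11 and Klf15, and overlapped for the other 6 pairs. The spread among WT mice itself differed between members, with a coefficient of variation from 4.99% for Klf3 to 58.5% for Klf15, and it was 28.4% for Klf4 against 10.5% for Klf5.

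**Figure D1:**
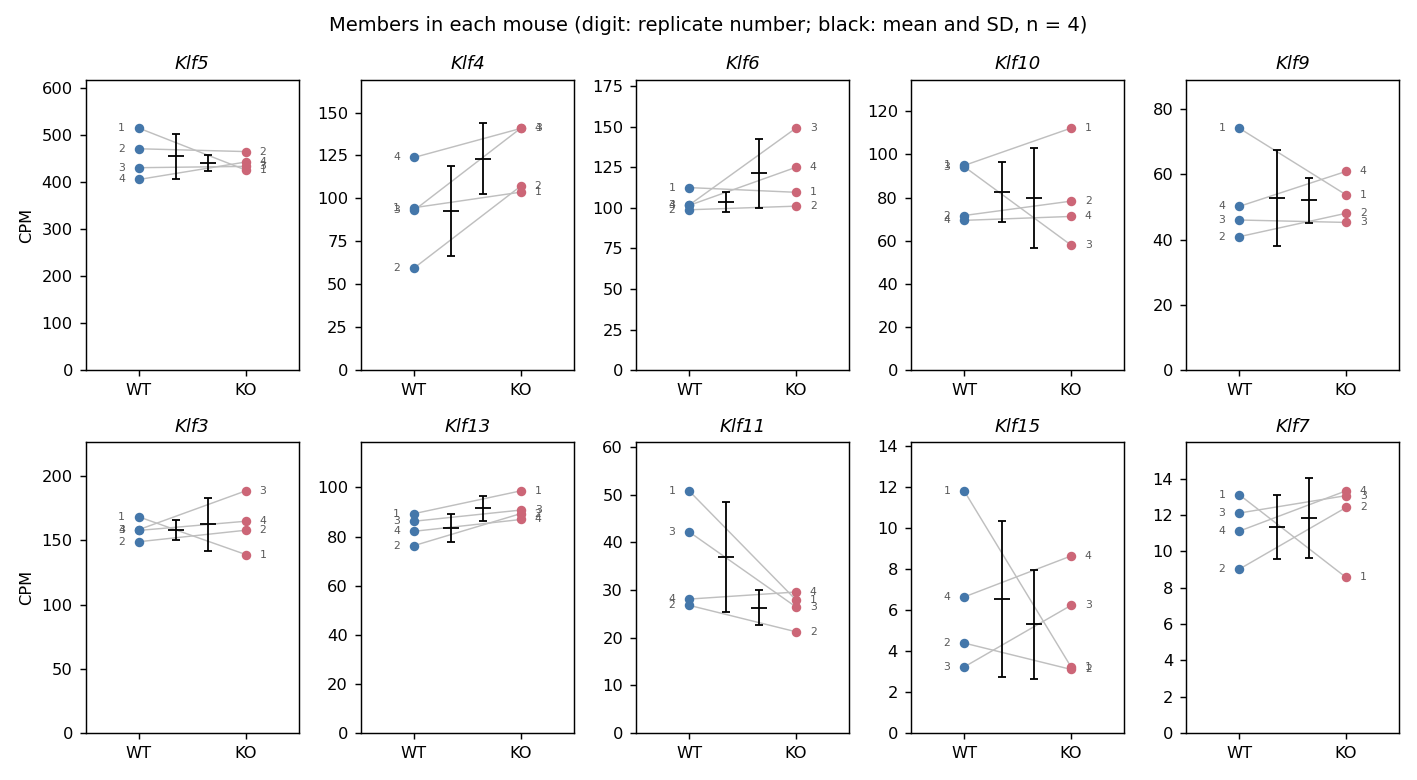
Level of each of the 10 members in every mouse, in CPM on a linear axis starting at 0; blue points are WT and red points KO mice, the digits are replicate numbers, grey lines join equal numbers, and black marks give mean and SD (n = 4). Klf4 and Klf13 are higher in KO in all 4 same-numbered pairs, and no member has all 4 KO mice outside the WT range on one side.

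All 10 members were among the 16109 genes with enough counts to enter the comparison of genotypes, which used edgeR's quasi-likelihood test. At an unadjusted p under 0.05, the threshold of the study, 1 of the 10 members passed by edgeR, Klf11, and it was lower in KO. Of all genes tested, 8.38% passed by edgeR, 5.33% higher and 3.05% lower. By DESeq2 2 of 10 passed the same threshold, Klf11 lower and Klf4 higher, against 9.08% of all genes. The paper reports Klf4 as upregulated in KO mice, and also by qRT-PCR and Western blot of ileum tissue. At an adjusted p under 0.05, 0 of 10 passed by edgeR and 0 of 10 by DESeq2 (lowest adjusted p 0.581 by edgeR), against 0.00621% of all genes by edgeR, a single gene, Mex3a, and 0.577% by DESeq2. In 5 members the fold change was positive and in 5 negative, and their median log2 fold change was 0.01 against -0.02 over all genes. The size of the changes without regard to direction had a median of 0.10 on the log2 scale over the members and 0.13 over all genes. In 0 of 10 members did all KO mice lie above or below all WT mice, which 4.05% of all genes showed. In whole crypts, fewer cells that express a gene and less of its RNA per cell cannot be told apart, and this holds for every level given here.

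The replicate numbers are shared by the genotypes, and mice with the same number tended to deviate together from their genotype means. The correlation was 0.129, 0.501, 0.141 and 0.294 for numbers 1 to 4. KO replicate 3 correlated more with a WT mouse of another number. Blocking by number, 2 of 10 members passed an unadjusted p under 0.05, Klf4 higher and Klf11 lower, against 11.3% of all genes (7.14% higher, 4.13% lower), and 0 of 10 passed after adjustment (lowest adjusted p 0.305 by edgeR), as did 0% of all genes. The share of all genes past the unadjusted threshold was itself unsteady, since 2133 passed without KO replicate 1 and 846 without KO replicate 3, against 1350 with all mice.

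**Figure D2:**
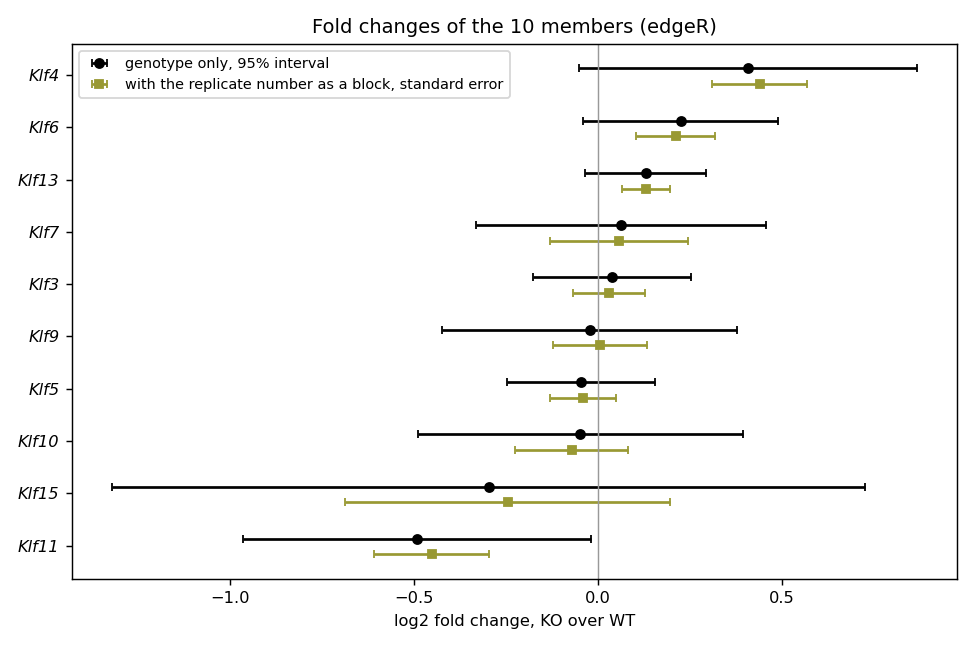
Log2 fold change of each member, KO over WT, by edgeR, ordered by size; black circles are the comparison by genotype only with 95% intervals, and green squares are the blocked fit with standard errors. Only the black interval of Klf11 (-0.96 to -0.02) excludes 0, and that of Klf4 runs from -0.05 to 0.87.

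Among the members that recruit activating partners, Klf4 had the largest positive fold change. Klf4 (ENSMUSG00000003032) spans bases 55527143 to 55532466 of chromosome 4 on the minus strand. Its level was 94.6, 59.4, 93.0 and 124 CPM in WT replicates 1 to 4, and 104, 107, 141 and 141 CPM in KO replicates 1 to 4. WT replicate 2 was the lowest of the 8 mice, and WT replicate 4 lay above KO replicates 1 and 2, so the groups overlapped. WT mice averaged 92.7 ± 26.3 CPM and KO mice 123 ± 20.5 (SD, n = 4), a log2 fold change of 0.41 (SE 0.20, 95% interval -0.05 to 0.87, adjusted p = 0.623 by edgeR), or 1.33-fold (0.966 to 1.83). The unadjusted p was 0.0749 by edgeR, above the threshold. In all 4 pairs of equal number the KO mouse was the higher, which 10.3% of all genes showed. Blocked by number, it was 0.44 on the log2 scale (unadjusted p = 0.0116, adjusted p = 0.305 by edgeR). Between mice numbered 1 and 2, and again between mice numbered 3 and 4, both KO mice lay above both WT mice for Klf4, an order that 6.20% of genes showed. The log2 ratio of KO to WT means was 0.45 in the former and 0.38 in the latter.

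The fold change of Klf4 depended most on the 2 WT mice at the ends of the range. Without WT replicate 2 it was 0.25 on the log2 scale, and without WT replicate 4 it was 0.58 with an unadjusted p of 0.0141 by edgeR. DESeq2 and edgeR without the filter on low counts gave Klf4 unadjusted p-values of 0.0472 and 0.0343, and adjusted p-values of 0.536 and 0.737. With these settings 2 of 10 members passed the unadjusted threshold, Klf4 and Klf11, against 9.08% of all genes by DESeq2 and 6.43% without the filter. With numbers 1 and 2 against 3 and 4 as a covariate, 1 of 10 members passed, Klf4 (unadjusted p = 0.0194 by edgeR), against 11.3% of all genes. WT replicate 4 also had the highest share of counts on mitochondrial genes, 11.6% against 6.60% to 7.68% in the other WT mice and 5.63% to 8.87% in KO mice, and the part of this in the level of Klf4 was not tested. The direction for Klf4 was the same in all 18 alternatives, with log2 fold changes from 0.25 to 0.58.

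Klf5 (ENSMUSG00000005148; chromosome 14, 99298691 to 99315036, plus strand), the activator of crypt proliferation, was 515, 471, 431 and 406 CPM in WT replicates 1 to 4, and 426, 465, 434 and 443 CPM in KO replicates 1 to 4. The KO mice lay within the WT range. The log2 fold change was -0.04 (95% interval -0.25 to 0.16, adjusted p = 0.938 by edgeR), an interval that leaves room for changes between 0.843-fold and 1.12-fold. Among mice numbered 1 and 2 both KO mice were below both WT mice for Klf5, and among mice numbered 3 and 4 both were above.

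Because the pair is known for opposite roles along the crypt axis, the FPKM of Klf4 was also taken as a percentage of that of Klf5 in each mouse. It was 31.3%, 21.5%, 36.8% and 52.0% in WT replicates 1 to 4, and 41.5%, 39.3%, 55.4% and 54.2% in KO replicates 1 to 4. Every KO mouse exceeded its WT counterpart, and 2 of 4 KO mice exceeded the highest WT mouse. The mean log2 ratio of Klf4 to Klf5 was 0.48 higher in KO (two-sided exact permutation test, p = 0.114, where 4 mice against 4 allow no p below 0.0286). The ratio thus overlapped between genotypes, and this test of the difference between Klf4 and Klf5 did not pass. With 1 mouse left out the difference ran from 0.26 without WT replicate 2 (exact permutation p = 0.286) to 0.69 without WT replicate 4 (exact permutation p = 0.0286, the smallest that 3 mice against 4 allow), and the p of the other 6 exact permutation tests was 0.114 to 0.257.

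Klf6, an activator first described as a growth inhibitor and induced by injury, was 112, 98.8, 102 and 101 CPM in WT replicates 1 to 4, and 110, 101, 149 and 125 CPM in KO replicates 1 to 4. KO replicates 3 and 4 lay above all WT mice, and KO replicates 1 and 2 lay within the WT range. The log2 fold change of Klf6 was 0.23 (SE 0.12, 95% interval -0.04 to 0.49, adjusted p = 0.640 by edgeR), with an unadjusted p of 0.0856. Without KO replicate 2 it was 0.31 (unadjusted p = 0.0185 by edgeR), and without KO replicate 3 it was 0.11. Klf7, an activator known mainly from neurons, stood at 9.02 to 13.1 CPM in WT and 8.56 to 13.3 in KO mice, with a log2 fold change of 0.06 (95% interval -0.33 to 0.46). Its KO range enclosed that of WT.

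**Figure D3:**
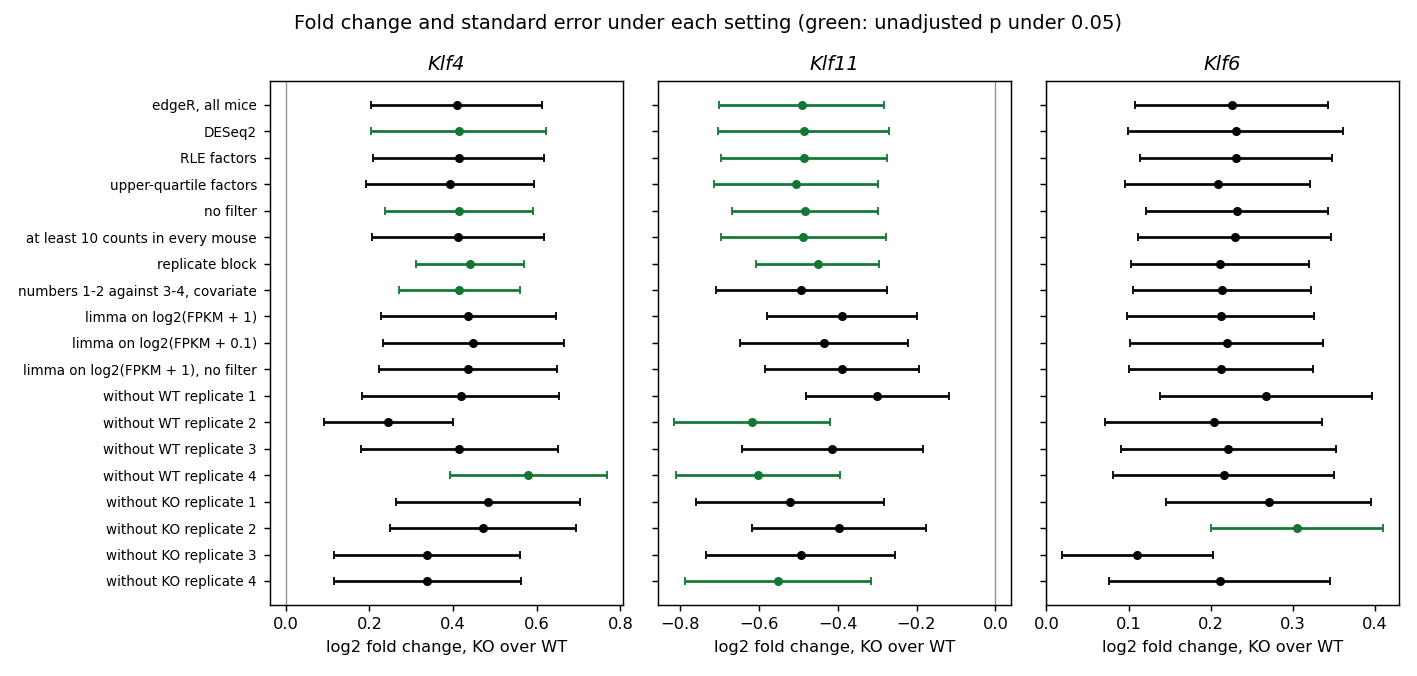
Log2 fold changes (points) and standard errors (bars) of Klf4, Klf11 and Klf6 under the comparison by genotype and 18 alternatives, each panel with its own axis; green marks an unadjusted p under 0.05. Klf4 passes in 5 of the 18 alternatives, Klf11 in 9 and Klf6 in 1, and none of the 3 changes sign in any.

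Klf3, a repressor that works through CtBP, was among the steadiest members, at 149 to 168 CPM in WT. In KO mice it was 139, 158, 189 and 165 CPM, with KO replicate 1 below and KO replicate 3 above all WT mice. For Klf3 the log2 fold change was 0.04 (95% interval -0.18 to 0.25, adjusted p = 0.951 by edgeR).

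The members that repress through the SIN3A co-repressor are Klf9, Klf10, Klf11 and Klf13, and Klf11 was the member past the unadjusted threshold. KLF10 and KLF11 are also known as TGF-beta-inducible early genes. Klf11 (ENSMUSG00000020653) spans bases 24651274 to 24662789 of chromosome 12 on the plus strand. It was 50.8, 26.8, 42.2 and 28.1 CPM in WT replicates 1 to 4, and 27.9, 21.2, 26.4 and 29.6 CPM in KO replicates 1 to 4. WT replicates 1 and 3 stood above all KO mice, whereas WT replicates 2 and 4 lay among them. WT mice averaged 37.0 ± 11.6 CPM and KO mice 26.3 ± 3.61 (SD, n = 4), a log2 fold change of -0.49 (SE 0.21, 95% interval -0.96 to -0.02, adjusted p = 0.581 by edgeR), or 0.712-fold (0.513 to 0.987). The unadjusted p was 0.0430 by edgeR, while an exact permutation test of the mean CPM gave p = 0.171. Klf11 was lower in 3 of the 4 same-numbered pairs, and when blocked by number its unadjusted p was 0.0235 by edgeR and its adjusted p 0.363.

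The call of Klf11 rested on several single mice and on the setting. Leaving out WT replicate 1 or 3 brought its unadjusted p by edgeR to 0.138 or 0.108. Leaving out KO replicate 1, 2 or 3 brought it to 0.0599, 0.109 or 0.0719. Its log2 fold change was then -0.30 or -0.41 without WT replicate 1 or 3, and -0.52, -0.40 or -0.49 without KO replicate 1, 2 or 3, against -0.49 with all mice. Without WT replicate 4 both Klf4 and Klf11 passed, and without KO replicate 2 Klf6 passed in place of Klf11, so that the number of members past the threshold ranged from 0 to 2 of 10, while the share of all genes ranged from 5.16% to 13.0% over the same settings. With numbers 1 and 2 against 3 and 4 as a covariate Klf11 did not pass either (-0.49, unadjusted p = 0.0515 by edgeR), nor did it in the 3 limma settings on FPKM (-0.39 to -0.44, unadjusted p = 0.0729 to 0.0824).

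Klf10, the other TGF-beta-inducible member, was 94.9, 71.7, 94.4 and 69.5 CPM in WT replicates 1 to 4, and 112, 78.4, 58.0 and 71.3 CPM in KO replicates 1 to 4. KO replicate 1 was the highest and KO replicate 3 the lowest of all mice. The log2 fold change of Klf10 was -0.05 (95% interval -0.49 to 0.39, adjusted p = 0.976 by edgeR), and its sign changed when any of 4 single mice was left out. Among WT mice, replicates 1 and 3 were the highest for 6 of the 10 members, Klf3, Klf6, Klf7, Klf10, Klf11 and Klf13. The same mice were highest in Fos, an immediate early gene induced within minutes of a stimulus, at 1047 and 888 CPM against 510 and 641. The share of all genes with this order of WT mice is not given here. The part of this order in the values of these members was not tested.

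Klf13, a SIN3A-dependent repressor best known from T cells, was 89.3, 76.3, 86.2 and 82.1 CPM in WT replicates 1 to 4, and 98.6, 89.3, 90.8 and 86.9 CPM in KO replicates 1 to 4. Every KO mouse was above its same-numbered WT mouse, which 10.3% of all genes showed. Of the 4 KO mice, 3 were above the highest WT mouse, KO replicate 2 only just. The log2 fold change of Klf13 was small and narrowly bounded, 0.13 (SE 0.07, 95% interval -0.03 to 0.30, adjusted p = 0.660 by edgeR), with an exact permutation p of 0.0571. Like Klf4, Klf13 was higher in KO both among mice numbered 1 and 2 and among mice numbered 3 and 4, an order that 6.20% of genes showed. Among numbers 1 and 2 this was close to a tie, with KO replicate 2 at 89.35 CPM and WT replicate 1 at 89.32. T cell markers, summed, were higher in KO as given above, and their part in the level of Klf13 was not tested.

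Klf9, which is induced by glucocorticoid and thyroid hormones and follows the clock in many tissues, was 74.2, 40.9, 46.0 and 50.2 CPM in WT replicates 1 to 4 and 45.3 to 60.9 CPM in KO mice. For Klf9 the log2 fold change was -0.02 (95% interval -0.42 to 0.38, adjusted p = 0.987 by edgeR). Klf15, another glucocorticoid-induced member, which governs amino acid and lipid metabolism and belongs to none of the repressor or activator groups above, was 11.8, 4.39, 3.22 and 6.64 CPM in WT replicates 1 to 4 and 3.10 to 8.64 CPM in KO mice. Its log2 fold change was -0.30 with a 95% interval from -1.32 to 0.73, the widest of the 10, which leaves room for changes between 0.401-fold and 1.65-fold. WT replicate 1 was the highest WT mouse for 9 of the 10 members, all but Klf4, and without it the log2 fold change of Klf9 became 0.19 and that of Klf15 0.16. It was also the highest of the WT mice for 8 of 12 glucocorticoid-induced genes, the other 4 being Cdkn1c, Errfi1, Mt1 and Mt2. Among the 8 were Fkbp5 (162 CPM against 40.4 to 66.8), Zbtb16 (17.3 against 0.327 to 1.09) and Pdk4 (64.7 against 4.72 to 27.5). The clock output gene Dbp separated the mice by number in both genotypes, at 1.01 to 2.45 CPM in mice numbered 1 and 2 and 10.6 to 14.2 CPM in those numbered 3 and 4. Klf15 followed this split in KO mice, at 3.23 and 3.10 CPM in numbers 1 and 2 against 6.23 and 8.64 CPM in numbers 3 and 4, but not in WT mice, and Klf9 followed it in neither genotype. The share of all genes for which WT replicate 1 is the highest WT mouse is not given here. Its place is therefore not shown to be particular to the members or to the glucocorticoid-induced genes. The part of these genes in the levels of the members was not tested.

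**Figure D4:**
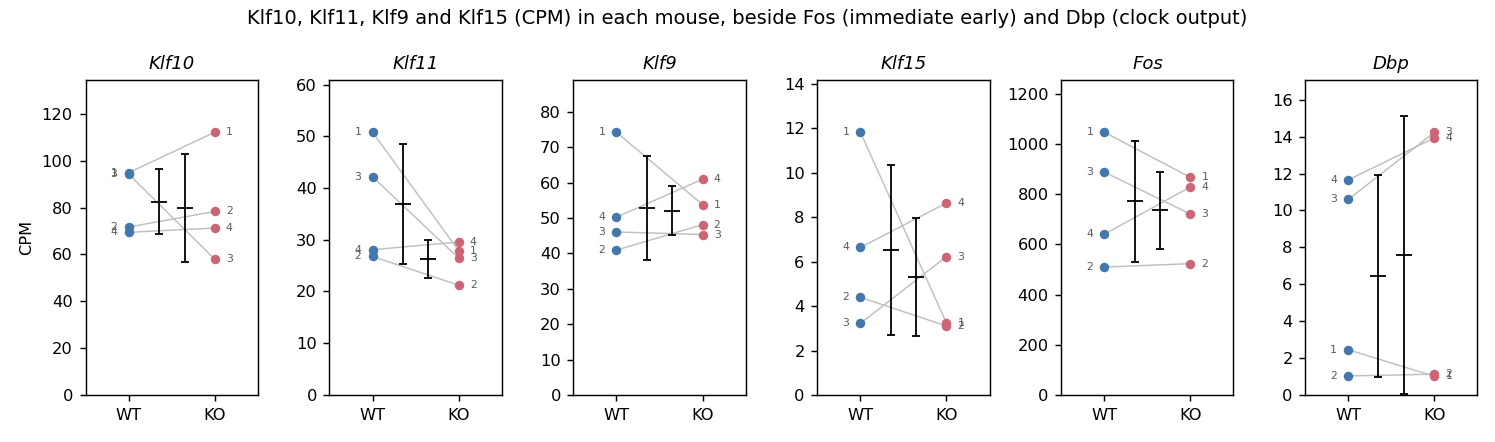
Levels of Klf10, Klf11, Klf9, Klf15, Fos and Dbp in every mouse, in CPM on linear axes starting at 0, with WT in blue, KO in red, replicate numbers as digits, and mean and SD (n = 4) in black. WT replicate 1 is the highest mouse for Klf11, Klf9, Klf15 and Fos, and Dbp splits into numbers 1 and 2 against 3 and 4.

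The counts of listed genes that follow stand beside the 8.38% of all genes (11.3% with the block) that passed an unadjusted p under 0.05. Of the 7 other Klf genes, 4 passed the filter, with a median log2 fold change of 0.05, and 1 passed an unadjusted p under 0.05. This was Klf12, a CtBP-binding repressor, with 3.23 ± 0.478 CPM (WT) against 4.46 ± 0.953 (KO; SD, n = 4), a log2 fold change of 0.47 (unadjusted p = 0.0462 by edgeR, 0.0629 with the block). Klf16 was the most abundant of them at 12.7 FPKM in WT, followed by Klf2 at 2.98 FPKM. Of 9 Sp genes, which share the KLF type of zinc fingers, 5 passed the filter and 0 passed the unadjusted threshold by edgeR, with Sp3 (19.0 FPKM in WT) and Sp1 (17.9) the most abundant.

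Of 12 co-regulators, among them Sin3a, the CtBP genes and histone deacetylases, 0 passed the unadjusted threshold by edgeR in either direction, and their median log2 fold change was -0.04. Of 11 tested genes for ubiquitin-dependent turnover of KLFs, 1 passed (list median 0.07) and 2 with the block. The former was Wwp2, a ubiquitin ligase, with 69.8 ± 2.16 CPM (WT) against 80.7 ± 3.42 (KO; SD, n = 4), with a log2 fold change of 0.21 (unadjusted p = 0.00656, adjusted p = 0.518 by edgeR).

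Of 14 cell cycle genes known as targets of KLF4 or KLF5, 2 passed an unadjusted p under 0.05 with and without the block, against 8.38% of all genes without it, the list median was 0.01, and 0 passed after adjustment by edgeR. Cdkn1a, the p21 inhibitor of cyclin-dependent kinases that KLF4 activates, was 65.4, 52.7, 58.9 and 76.7 CPM in WT replicates 1 to 4, and 90.2, 89.8, 111 and 135 CPM in KO replicates 1 to 4. All KO mice lay above all WT mice, an order or its reverse that 4.05% of genes showed. The log2 fold change of Cdkn1a was 0.75 (SE 0.16, unadjusted p = 0.00092, adjusted p = 0.429 by edgeR). Myc, a driver of growth, passed lower, with a log2 fold change of -0.42 (unadjusted p = 0.0125, adjusted p = 0.518 by edgeR), while Ccnd1, a cyclin induced by KLF5, had a log2 fold change of -0.03.

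Of 12 tested differentiation genes linked to KLF4, 3 passed the unadjusted threshold, all higher, against 8.38% of all genes, and 6 did with the block, against 11.3%. The list median was 0.24, against -0.02 over all genes. The 3 genes, Krt20, Krt19 and Vil1, are also 3 of the 4 epithelial markers that passed, so both lists count the same calls. Krt20, a keratin of the villus, averaged 182 ± 105 CPM in WT mice against 377 ± 135 (SD, n = 4) in KO mice, with KO replicate 3 and WT replicate 4 the highest of their groups. Its log2 fold change was 1.05 (unadjusted p = 0.0210, adjusted p = 0.540 by edgeR), and those of the microvillus protein Vil1 and of Krt19 were 0.59 and 0.20. The T cell marker sum was highest in the same KO mouse, at 98.5 CPM. WT replicate 4, which had the highest Klf4, Cdkn1a, Krt20 and Vil1 among WT mice, also had the highest T cell sum among them, at 45.4 CPM. The part of differentiated or lymphoid cells in the levels of Klf4 was not tested.

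**Figure D5:**
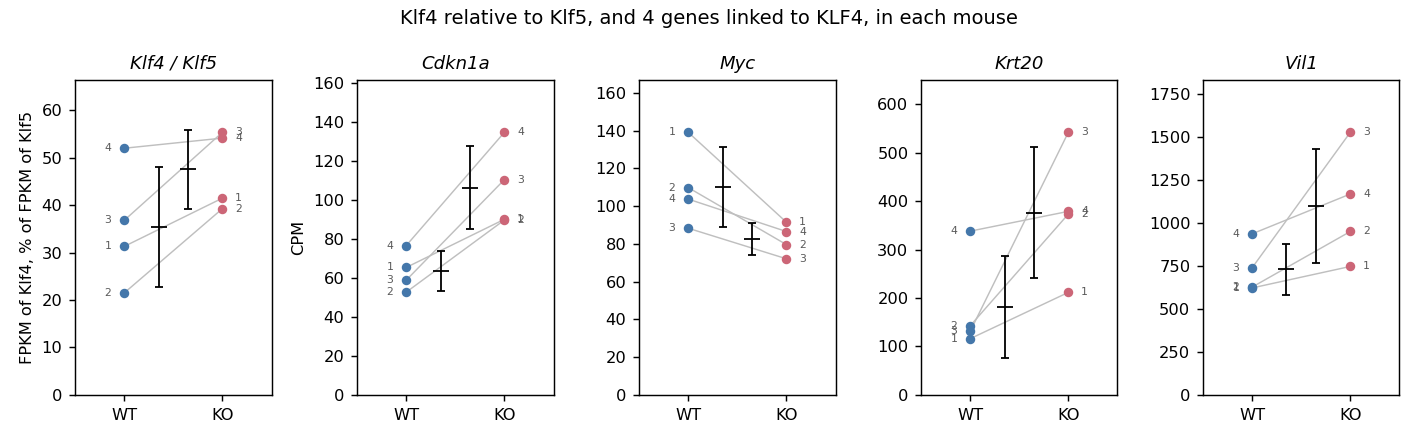
FPKM of Klf4 as a percentage of that of Klf5 (first panel), and levels in CPM of Cdkn1a, Myc, Krt20 and Vil1, in every mouse, on linear axes starting at 0, with WT in blue, KO in red, replicate numbers as digits, and mean and SD (n = 4) in black. The ratio, Cdkn1a, Krt20 and Vil1 are higher and Myc lower in KO in all 4 same-numbered pairs, and of these panels only Cdkn1a has no overlap between the genotypes.

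Genes that answer to the stimuli known to induce members were counted as well. Of 9 tested TGF-beta early response genes, the class that gave KLF10 and KLF11 their other names, 2 passed the unadjusted threshold, 1 in each direction, and 2 with the block, both higher, and the list median was 0.06. Smad7, an inhibitor of TGF-beta receptors, was higher (log2 fold change 0.57, unadjusted p = 0.000241, adjusted p = 0.378 by edgeR), and the transducer Smad3 was lower (-0.15, unadjusted p = 0.0457 by edgeR, 0.0552 with the block), while Skil passed with the block alone (0.24, unadjusted p = 0.0257). Of 18 immediate early genes 1 passed, Ier5, with a log2 fold change of 0.45 (list median 0.09). Of 12 glucocorticoid-induced genes 1 passed, Errfi1, with a log2 fold change of 0.43 (list median -0.01), and 3 passed with the block, all higher. Of 16 clock genes 0 passed by edgeR (list median 0.08), and 1, Nr1d2, passed lower with the block. None of these passed after adjustment.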

How the data were processed

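Per the labels, crypts of 4 WT and 4 KO mice gave 1 library each, and the mice were grouped by the genotype in the labels. Raw counts of reads on each gene were deposited by the authors, which the submitters' processing notes tie to HISAT2 2.0.5 and featureCounts 1.5.0-p3, without naming the build, and their deposited FPKM values scale them by gene length and by library. The aligned strand is not given in the sources used here, so reads of overlapping antisense genes cannot be separated. The authors also deposited their own fold changes and p-values, which were not used. Of 55114 gene identifiers, 54809 were found in GENCODE M21 and 54123 had the same coordinates, which held for all members but Klf9.

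Counts were compared with edgeR 4.0.16 in R 4.3.3 (filterByExpr with a minimum count of 10, TMM factors, quasi-likelihood test, genotype as the only term, prior degrees of freedom 3.34), with Benjamini-Hochberg adjustment over the 16109 genes tested. CPM used TMM-scaled library sizes. Counts were also simulated for the comparison of KO with WT over 16109 genes. At an adjusted p under 0.05, the edgeR test recovered 59% of the genes changed 2-fold and 91% of those changed 4-fold, with 2.6% false calls. The simulated spread depended on the level of a gene alone, with none particular to a gene or shared by replicate number. These figures may therefore be better than in the real data. The changes of Klf4 (1.33-fold) and Klf11 (0.712-fold) were smaller than any simulated. Replicate numbers were treated as pairing the mice, since mice of equal number deviated together from their group means (correlation 0.129 to 0.501 over the 4 pairs), although no source says that a number marks a litter. The p-values measure the spread between these mice. Alternatives were DESeq2 1.42.0, RLE and upper-quartile factors, other filters, limma 3.58.1 on log2(FPKM + 1) and log2(FPKM + 0.1) for genes with a mean FPKM of at least 1 or without that filter, the replicate block, and leaving out each mouse. A fit with numbers 1 and 2 against 3 and 4 as a covariate was chosen after seeing the data. The 3'UTR search used Python 3.11.15, and figures were drawn with matplotlib 3.10.9.

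The members and gene lists were chosen with earlier results of these data known. All members are described, and of each list other than cell type markers the genes past an unadjusted p of 0.05, at most 4. The most abundant of the other Klf genes and of the Sp genes are given as well. Of genes that passed with the block alone, some are named, such as Skil and Nr1d2, and others, such as Itch, are not. The glucocorticoid, Fos and Dbp values and Ccnd1 were chosen after seeing the data. The depth, at least 20324184 counts per mouse, leaves Klf7 and Klf15 with the largest counting error of the members.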

Additional observations from a re-analysis of the deposited data

Results flagged for a closer look

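Of 58 sets of 4 mice examined, 2 held a mouse far from the other 3, where chance alone is expected to give 2.9 (about 1 in 20). The sum of the Sp genes, relatives of the Klf genes, was 258 CPM in KO replicate 1 and 280 to 283 CPM in the other KO mice. The sum of the 8 epithelial markers was 9240 CPM in WT replicate 1 and 9839 to 9935 CPM in the other WT mice. WT replicate 1 was also the highest WT mouse for 9 of the 10 members, all but Klf4, with no share over all genes to set beside it. None of the 10 members held such a mouse in either genotype.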

How the results depend on the processing

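The number of members past an unadjusted p under 0.05 was 1 by edgeR and 2 with DESeq2, without the filter and with the replicate block, and 0 with limma on log2(FPKM + 1), on log2(FPKM + 0.1) and without its filter; leaving out 1 mouse gave 0 to 2. After adjustment it was 0 in every setting run. Over all genes, 1350 passed unadjusted (846 to 2133 with 1 mouse left out). After adjustment 1 gene passed, against 93 with DESeq2, 2 without the filter, 0 with at least 10 counts in every mouse, 0 with the replicate block, 4 with the covariate, 0 with limma on log2(FPKM + 0.1), 3 with limma without its filter, and 0 to 4 with 1 mouse left out. The log2 ratio of Klf4 to Klf5 differed by 0.26 to 0.69 with 1 mouse left out. Among members, the replicate block changed the unadjusted call of Klf4 (log2 fold change 0.44) and no other, and no adjusted call. Mex3a, not a member, lost its adjusted call with the block and kept its unadjusted one, with a log2 fold change of -4.51 against -4.43 without the block. The signs of Klf4, Klf6, Klf11 and Klf13 held in all 18 alternatives. That of Klf9 turned with the block (0.0061) and with limma (0.012, 0.014 and 0.012 without its filter). With 1 mouse left out, signs turned for Klf3 (-0.041 to 0.11), Klf5 (-0.096 to 0.019), Klf7 (-0.032 to 0.19), Klf9 (-0.13 to 0.19), Klf10 (-0.26 to 0.079) and Klf15 (-0.64 to 0.16). The cause was not tested. Depth limits Klf7 and Klf15 most.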
